A study of Rattus norvegicus with 6 samples.

Results

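The gelsolin family of actin-binding proteins was followed in NRK-52E cells, an established epithelial line from rat kidney, after exposure to streptozotocin (STZ), a DNA-alkylating nitrosourea taken up through glucose transporters. Its 7 members here were Capg, Gsn, Vil1, Avil, Scin, Svil and Flii, found by gene symbol among the 18930 genes of the deposited count table. The family was chosen by STZ against Control values of these same samples, with Capg as its leading gene, so the differences of the members are given as a description, with no p-value, and the number of members past a threshold is given only beside the share of all genes. RNA of wild-type cells was sequenced in 3 Control samples, which received vehicle, and in 3 STZ samples, which received 10 mM of STZ for 24 h. All 6 samples came from a single cell line, and the labels do not say whether replicates were separate cultures, so the spread given is that between these samples.

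Gelsolin-type repeats bind actin, and most members use them, in the presence of calcium, to cut filaments and to cap the fast-growing barbed end so that subunits are no longer added there. Capg is a shorter member that caps without cutting, and Gsn both cuts and caps. Vil1, Avil and Svil also carry a villin headpiece, a small actin-binding module at the end of the protein. In kidney, Vil1 is known as a structural protein of the microvilli that form the proximal tubular brush border.

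The upstream windows of Gsn and Svil are shown because these members, next to Capg, were higher in STZ-treated cells. Each holds the 250 bases before an annotated start in RefSeq (GRCr8), on the strand of the gene. A window was found for 6 of the 7 members, with no entry for Capg. The 33469 windows in all came from 27457 genes, and the first one listed was used for each member. Capitals mark matches on either strand to the GC box (GGGCGG), the TATA box with letters TATAAA, the CCAAT box and the CArG box, the site of serum response factor, a regulator of many actin genes.

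Gsn: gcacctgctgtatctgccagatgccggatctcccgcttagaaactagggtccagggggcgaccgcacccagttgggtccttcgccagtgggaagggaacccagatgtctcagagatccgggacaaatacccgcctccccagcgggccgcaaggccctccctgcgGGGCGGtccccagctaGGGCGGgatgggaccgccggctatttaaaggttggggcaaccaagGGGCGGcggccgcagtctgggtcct

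Svil: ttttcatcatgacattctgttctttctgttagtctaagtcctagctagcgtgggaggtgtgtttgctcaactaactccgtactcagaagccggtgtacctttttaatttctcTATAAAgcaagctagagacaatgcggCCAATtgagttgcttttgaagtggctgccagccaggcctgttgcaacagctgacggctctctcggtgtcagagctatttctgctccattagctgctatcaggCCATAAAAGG

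The Gsn window held 3 GC boxes, and 66.4% of its bases were G or C. The Svil window held 1 TATA box, 1 CCAAT box and 1 CArG box, which lay at its downstream end, and had 46.4% G or C. The GC box and the CCAAT box also occurred in members other than Gsn and Svil. Flii held 1 GC box (68.4% G or C) and Vil1 held 1 GC box (64.0%). The Avil window held 1 CCAAT box (44.0%), and the Scin window held none of the marked motifs (51.6%). Of 33469 windows of the same length, 30.5% held a GC box, 12.9% a TATA box, 34.0% a CCAAT box and 1.5% a CArG box, and the median share of G or C was 51.2%. The matches did not overlap each other. The AP-1 motif TGANTCA and the p53 half-site were also searched on both strands and had no match in the 6 windows, against 6.34% and 6.64% of all windows. A match is a description of these letters only.

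Total counts were 10430924 to 12737131 in Control and 11658253 to 15191349 in STZ. Normalized counts are counts divided by the TMM-scaled library size and brought to the mean library. Of all genes, 11870 had enough reads to be tested. Markers of the labelled cell type were read in part. Krt8 (mean 14297 normalized counts in Control) and the tight junction gene Tjp1 (7617) were abundant, whereas Krt18 and Cdh16 had at most 3 and 4 reads in any sample. Of 7 proximal tubule markers in the table, including Lrp2, Slc34a1 and Slc5a2, only Aqp1 exceeded 10 reads in a sample, and it fell by 1.25 on the log2 scale (adjusted p = 9.4e-09, edgeR). Of 8 macrophage and leukocyte markers in the table, 2 were tested, Cd14 and Cd68. Cd14 rose by 0.26 on the log2 scale (adjusted p = 5.7e-06, edgeR), and Cd68 differed by 0.40 (adjusted p = 0.28, edgeR). Of the others, Ptprc, Adgre1, Lyz2 and Tyrobp had at most 1 read in any sample, Aif1 at most 3 and Csf1r at most 7. The summed level of the 8 was 1271 to 1299 normalized counts in Control and 1513 to 1605 in STZ, nearly all of it Cd14, and its part in the results was not tested. Of 11 fibroblast and smooth muscle markers in the table, 7 were tested, of which 2 (Des and Tagln) rose and 5 fell, with summed levels of 25561 to 28416 in Control and 25503 to 25863 in STZ. Of 5 endothelial markers, 1 was tested and fell, and their sum was 32.8 to 51.6 in Control and 20.5 to 29.9 in STZ. The part of these lists was likewise not tested.

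Capg, the capping protein without severing activity, had the largest difference among the members. Control samples had 422, 464 and 467 normalized counts in replicate order, and STZ samples had 1801, 1784 and 1820. Every STZ sample lay far above every Control sample, and the lowest STZ value was 3.82 times the highest Control value. The mean was 451 ± 24.9 in Control (SD, n = 3) and 1802 ± 17.7 in STZ (SD, n = 3), a 3.99-fold difference, or 1.995 on the log2 scale (standard error 0.05). Of the 11870 genes tested, 0.379% had a higher log2 fold change than Capg, which ranked 46 from the top. As these are bulk samples, more cells with Capg and more Capg RNA per cell cannot be told apart.

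Gsn, which severs and caps filaments and also exists as a secreted plasma form, differed less. Control samples had 2436, 2444 and 2459 normalized counts, and STZ samples had 3288, 3246 and 3086. The groups did not overlap, and the coefficient of variation was 0.472% in Control and 3.32% in STZ. Its log2 fold change was 0.39 (standard error 0.04), a 1.31-fold difference.

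Svil encodes supervillin, a large member that links actin and myosin to membranes. It had 610, 593 and 666 normalized counts in Control and 866, 965 and 1011 in STZ, again without overlap. Its spread was wider than that of Capg or Gsn, with a coefficient of variation of 6.11% in Control and 7.82% in STZ. The log2 fold change was 0.60 (standard error 0.06), a 1.52-fold difference.

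Flii, a member with leucine-rich repeats that also acts as a transcriptional coactivator, had overlapping groups. Control samples had 1692, 1795 and 1741 normalized counts and STZ samples had 1708, 1887 and 1943. STZ replicate 1 lay below Control replicates 2 and 3. The log2 fold change was 0.08 (standard error 0.05), and it was 0.14 without STZ replicate 1 and 0.04 without STZ replicate 3.

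Avil, advillin, is best known from sensory neurons. It had only 30, 31 and 39 reads in Control and 43, 33 and 44 in STZ, which came to 35.2, 35.1 and 37.9 normalized counts in Control and 38.9, 35.7 and 36.5 in STZ. The groups overlapped, with a log2 fold change of 0.04 and a standard error of 0.21. The standard error of Gsn, with 2076 or more reads in each sample, was 0.04.

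Vil1 and Scin were at the limit of detection. Vil1 had 1, 1 and 3 reads in Control and 1, 3 and 0 in STZ. Scin, adseverin, a severing and capping protein known from secretory cells, had 0, 0 and 1 reads in Control and 1, 0 and 2 in STZ. No library held more than 3 reads of either gene. A count of 3 corresponds to between 0.197 and 0.288 CPM in these libraries, so levels under that cannot be told from 0, counting error only. Both genes were removed by the filter on low counts and no fold change is given. Any difference in Vil1, the brush border gene, was not detectable at this depth.

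**Figure D1:**
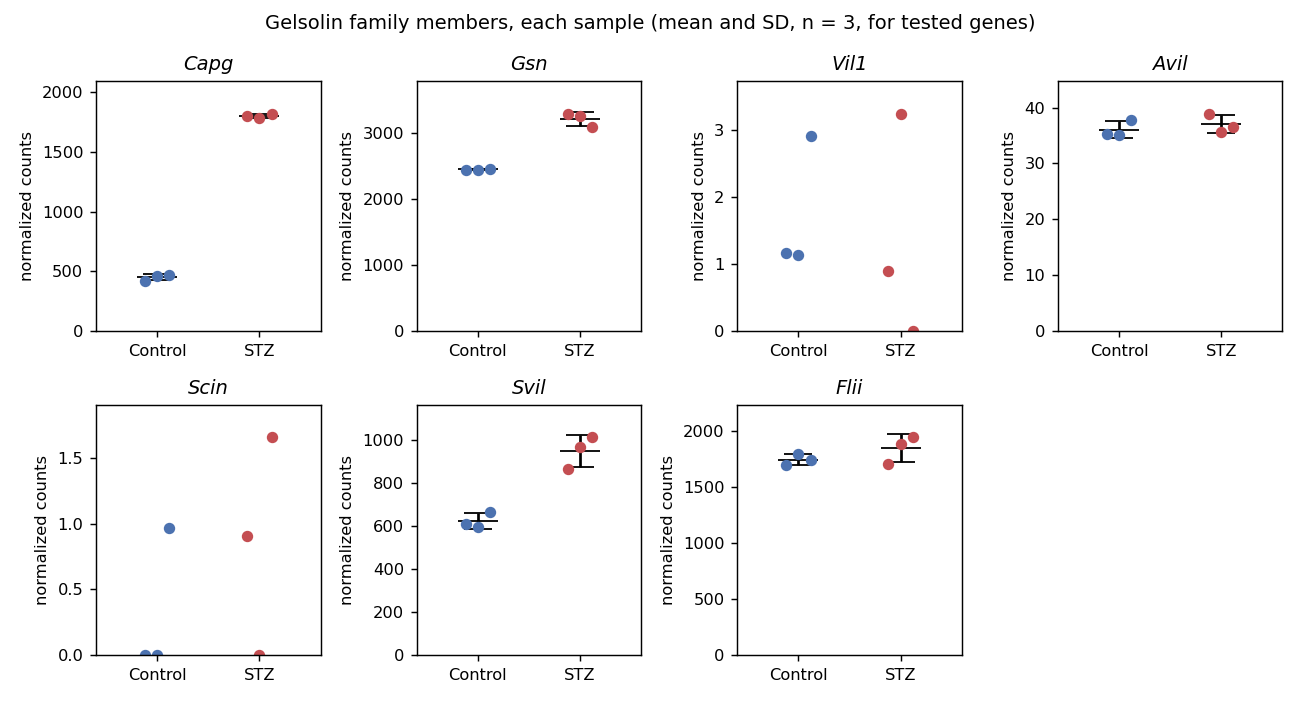
Normalized counts (vertical axes, each starting at 0) of the 7 members in 3 Control (blue) and 3 STZ (red) samples, with mean and SD bars for the 5 tested members. Capg, Gsn and Svil show separate groups, Flii and Avil overlap, and Vil1 and Scin stay under 4 normalized counts.

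Of the family, 5 of the 7 members passed the filter on low counts. At an adjusted p-value under 0.05 in the fit over all genes, 3 of these 5 (Capg, Gsn and Svil) were past the threshold, all in the higher direction, where 25.9% of all genes tested were. With the additional requirement of the study, an absolute log2 fold change over 1, Capg alone of the 5 remained, where 2.26% of all genes tested were higher and 1.11% lower. All STZ samples lay above all Control samples in the same 3 members and in 28.6% of all genes tested. Because the contrast chose the family, nothing is read from these counts.

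The members did not keep their proportions. Per 100 Gsn reads of the same sample, Capg had 17.3, 19.0 and 19.0 reads in Control and 54.8, 55.0 and 59.0 in STZ. Flii had 69.5, 73.5 and 70.8 reads per 100 Gsn reads in Control and 52.0, 58.1 and 62.9 in STZ. Svil overlapped on this scale, with 25.05, 24.3 and 27.1 in Control and 26.3, 29.7 and 32.8 in STZ. Such ratios show unequal change between genes and are independent of library scaling. Gene lengths were not used here, so the members are not ranked by level.

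**Figure D2:**
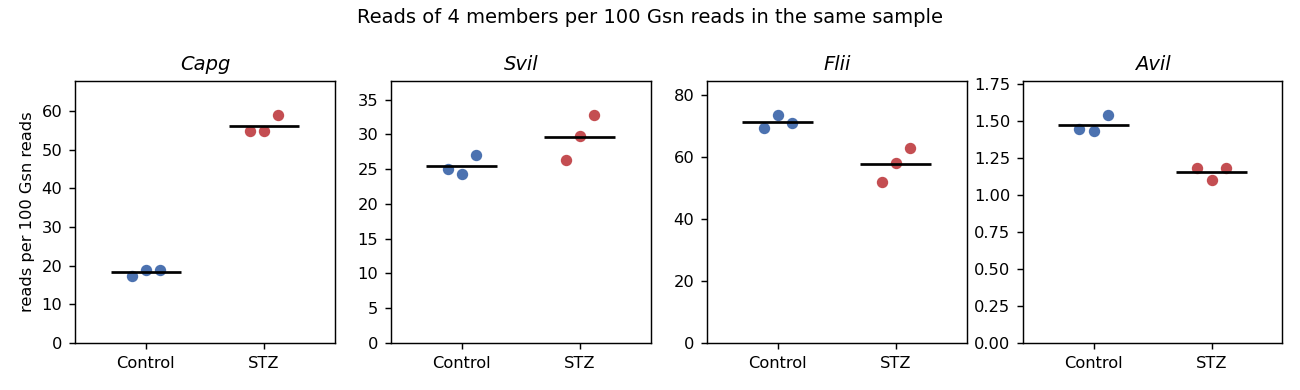
Reads of Capg, Svil, Flii and Avil per 100 Gsn reads of the same sample (vertical axes, each starting at 0), with 3 Control (blue) and 3 STZ (red) samples and their means as lines. Capg is at most 19.0 in Control and at least 54.8 in STZ, Flii and Avil lie lower in every STZ sample, and Svil overlaps.

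The sum over the 7 members was 5197, 5332 and 5375 normalized counts in Control and 7704, 7921 and 7897 in STZ. Without Capg it was 4775, 4868 and 4908 in Control and 5902, 6137 and 6078 in STZ. Capg made up 8.13% to 8.70% of the reads of the family in Control samples and 22.5% to 23.4% in STZ samples. The share of Gsn was 45.7% to 46.9% in Control and 39.1% to 42.7% in STZ, although its own level was higher.

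In the GRCr8 annotation the span of Avil overlaps Tsfm, that of Flii overlaps Llgl1 and a small nucleolar RNA, that of Scin overlaps an unnamed protein-coding gene and that of Capg overlaps a transfer RNA gene. Whether reads were counted by strand is not given in the sources used here, so reads of such pairs may not be fully separated. Tsfm had 227 to 310 reads per sample, against 30 to 44 of Avil, and had a log2 fold change of -0.11 (adjusted p = 0.27, edgeR). Llgl1, a cell polarity gene, had 1472 to 2045 reads per sample, against 1442 to 2339 of Flii. Llgl1 fell in STZ-treated cells, with a log2 fold change of -0.34 (adjusted p = 8.8e-09, edgeR). Gsn, Svil and Vil1 overlap no other gene there.

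Among 9601 named genes with at least 50 normalized counts on average, those most like Capg across the 6 samples were Anxa8, Dusp3 and Cryab, with Pearson's r of log2 CPM of 0.9998 each. Anxa8, a calcium-dependent membrane-binding annexin, had a mean of 254 normalized counts in Control and 857 in STZ, a log2 fold change of 1.75. Those of Dusp3, a dual-specificity phosphatase, and Cryab, a small heat shock protein, were 0.74 and 0.76. The most opposite were Fam89b, Erlin2 and Glce, with r of -0.9993, -0.9993 and -0.9992, and log2 fold changes of -0.29, -0.34 and -0.36. The samples form 2 groups and 1833 of the 9601 genes had an r over 0.9, so likeness mostly restates the split by treatment. Within the family, r with Capg was 0.99 for Gsn, 0.97 for Svil, 0.57 for Flii and 0.37 for Avil.

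The family acts on filaments together with other cappers, severing proteins, nucleators and bundlers. Outside the 7 members, 113 genes of actin filaments, the brush border and the villin headpiece and Flii partner list were followed in 8 lists. Of the 78 that were tested, 36 rose and 13 fell in STZ-treated cells at an adjusted p-value under 0.05 (edgeR, quasi-likelihood), or 46.2% and 16.7%, where 25.9% and 25.1% of all genes tested did. Their median log2 fold change was 0.11, against -0.01 over all genes tested. These were small changes, between -0.77 and 0.88, and 0 of the 78 passed the fold-change threshold that Capg passed, by edgeR, DESeq2 or limma-voom. At an unadjusted p under 0.05, 37 were higher and 15 lower. The lists were chosen with earlier results of these data known, so the shares above are a description. How far the level of the genes bears on these shares was not tested.

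Among the other barbed-end cappers, 4 of 14 rose and 4 fell (28.6% each), near the 25.9% and 25.1% of all genes tested. The number that fell was 2 without Control replicate 3 or by DESeq2. The heterodimeric capping protein, the main general capper of barbed ends, differed little, with log2 fold changes of -0.03 for Capza1, 0.02 for Capza2 and 0.16 for Capzb. Capzb was higher (adjusted p-value under 0.05), and the 2 alpha subunits were not past the threshold. Eps8, which caps and bundles filaments in microvilli, had 147, 122 and 126 normalized counts in Control and 263, 227 and 221 in STZ, or 0.85 higher on the log2 scale (standard error 0.11, adjusted p = 6.1e-09 by edgeR). Its relative Eps8l2 rose by 0.35. Add3, the gamma-adducin subunit of the membrane skeleton, fell by 0.77, with 305, 261 and 287 normalized counts in Control and 169, 169 and 164 in STZ. Twf2, a twinfilin, fell by 0.24. No group overlapped in these last 4 genes. The Capza genes and Capzb were named after their values were seen.

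Of 13 severing and disassembly genes outside the family, 5 rose and 1 fell. Dstn, destrin, a filament-severing relative of cofilin, had 2300, 2351 and 2431 normalized counts in Control and 3439, 3524 and 3651 in STZ, or 0.58 higher on the log2 scale (standard error 0.04, adjusted p = 3.3e-16, edgeR). Wdr1, which works with cofilin, rose by 0.37, and Mical3, an enzyme that oxidizes actin, fell by 0.19. Cfl1, the abundant cofilin, had a log2 fold change of -0.01 and was not past the threshold, and was named after its value was seen.

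Of 22 nucleation and elongation genes, 13 rose and 2 fell. The number that fell was 1 without Control replicate 3, STZ replicate 1 or STZ replicate 2, by DESeq2 and with no filter, and 4 with library size only, with the upper quartile and with the replicate block. The formins Inf2 and Diaph3 rose by 0.45 and 0.42. Arpc1b, a subunit of the branching Arp2/3 complex, fell by 0.20, from a mean of 6458 to 5639 normalized counts. Of the other subunits of the complex, Actr2, Arpc1a, Arpc2, Arpc3, Arpc4 and Arpc5 rose by 0.11, 0.12, 0.17, 0.22, 0.15 and 0.17. Actr3 (-0.02) and Arpc5l (0.17) were not past the threshold. These other subunits were named after their values were seen. Wasl, an activator of that complex, had a log2 fold change of -0.14 (adjusted p = 0.036, edgeR) and was not past the threshold by DESeq2 (adjusted p = 0.099) or with no filter (0.051). Nor was it past it without Control replicate 2 (adjusted p = 0.14, edgeR), Control replicate 3 (0.11), STZ replicate 1 (0.06) or STZ replicate 2 (0.13).

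**Figure D3:**
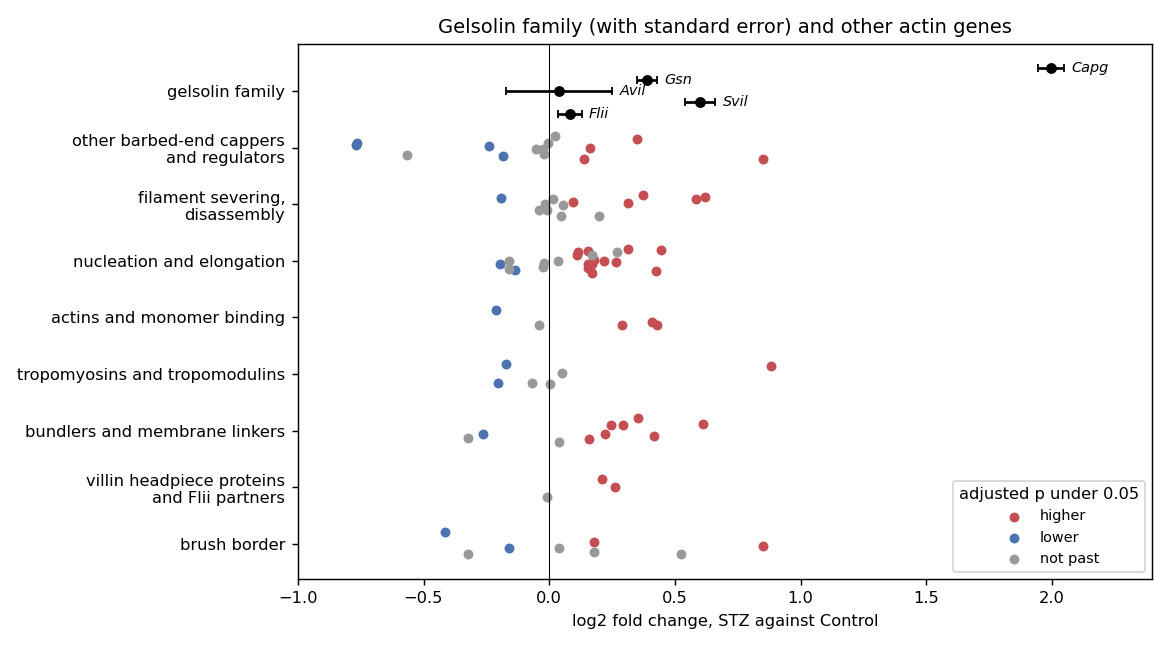
Log2 fold change, STZ against Control (horizontal axis), of the 5 tested members (black, with standard errors) and of the genes of 8 actin lists, coloured by whether they were higher, lower or not past an adjusted p-value of 0.05. Capg, at 1.995, stands to the right of every list gene, the highest of which is Tpm2 at 0.88.

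Of 5 actins and monomer-binding genes, 3 rose and 1 fell. Actg1, cytoplasmic gamma-actin, rose by 0.41, from a mean of 7417 ± 327 to 9839 ± 99.5 normalized counts (SD, n = 3), and Pfn2, a profilin, rose by 0.43. Acta2, smooth muscle actin, fell by 0.21 (adjusted p = 0.0036, edgeR), and had a log2 fold change of -0.15 without Control replicate 3 (adjusted p = 0.062). Tropomyosins, which coat filaments and limit the access of severing proteins, moved apart. Tpm2 had 2840, 3095 and 3203 normalized counts in Control and 5589, 5484 and 5773 in STZ, or 0.88 higher on the log2 scale (standard error 0.04, adjusted p = 4.9e-22, edgeR), whereas Tpm1 fell by 0.17 and Tpm3 by 0.21. Of the 6 genes tested in that list, 1 rose and 2 fell.

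Bundlers and membrane linkers rose in 7 of 10 genes and fell in 1. Flnc, a filamin, rose by 0.61 and Msn, moesin, by 0.42, while Rdx, its relative radixin, fell by 0.26. Of the villin headpiece and Flii partner list, 3 genes were tested. Lrrfip1 and Lrrfip2, which bind Flii, rose by 0.21 and 0.26, and Vill, a villin-like gene named after its value was seen, had a log2 fold change of -0.01 and was not past the threshold.

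Of the 15 genes of the brush border list, 8 were tested. Of these, 2 rose and 2 fell (25% each), near the 25.9% and 25.1% of all genes tested. Eps8, also in the list of cappers, and Myo6, a myosin, rose by 0.85 and 0.18. Slc9a3r1, the membrane scaffold NHERF1, fell by 0.42, from 6189, 6008 and 5659 normalized counts in Control to 4459, 4588 and 4340 in STZ. Myo1d, another myosin, fell by 0.16. Cdhr2, Ush1c, Anks4b and Myo7b, also of the brush border list, did not exceed 10 reads in a sample and were named after their values were seen.

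**Figure D4:**
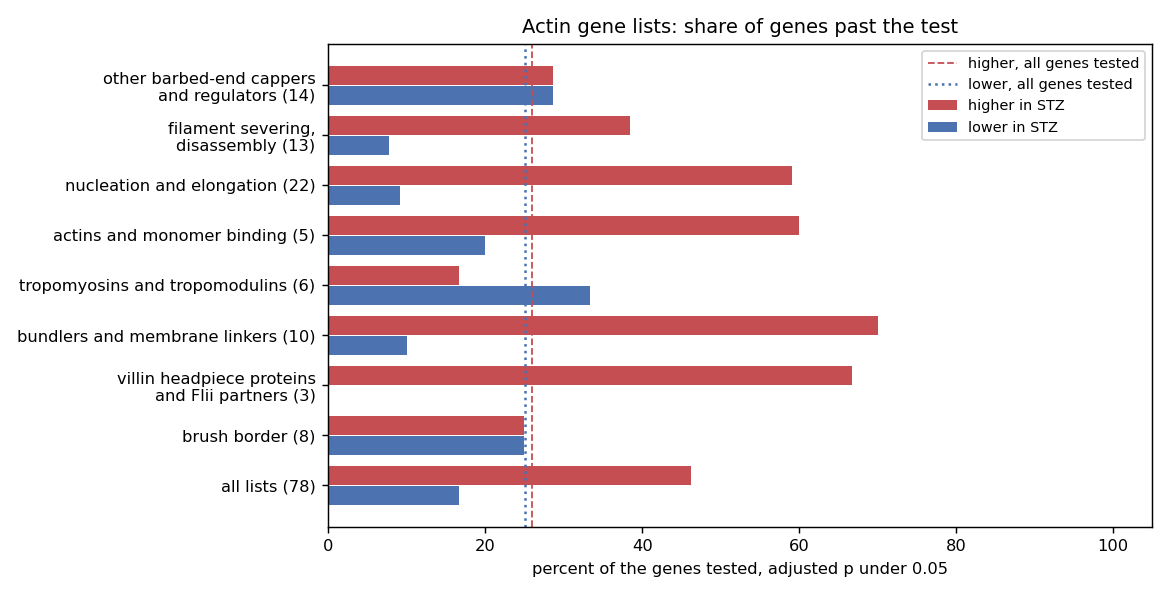
Percent of the tested genes of each actin list (number tested in brackets) that were higher (red) or lower (blue) in STZ at an adjusted p-value under 0.05, with lines for all genes tested at 25.9% and 25.1%. Over all 78 list genes, 46.2% were higher and 16.7% lower, and bars of the smaller lists rest on as few as 3 genes.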

How the data were processed

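The authors prepared stranded mRNA libraries, sequenced 100-bp single-end reads, mapped them to the rat genome (Rnor6) with STAR 2.7.10a and counted uniquely mapped reads with featureCounts. They deposited raw counts without normalization, 1 column for each of the 6 samples. Here counts were scaled by TMM, filtered by filterByExpr at its default settings and compared with the quasi-likelihood test of edgeR 4.0.16 (R 4.3.3), adjusted by Benjamini-Hochberg over 11870 genes. Standard errors were derived from the log2 fold change and the F statistic. Alternatives used DESeq2 1.42.0 and limma 3.58.1. The steps were tested on simulated counts. Total counts of 10430924 to 15191349 per sample limit the precision of low genes. With 3 samples against 3, an exact permutation p for 1 gene cannot fall below 0.1, so none was computed.

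The members and lists were chosen with earlier results of these data known. Named were all members, up to 2 genes per list and direction with the smallest p (no overlap of groups, at least 50 normalized counts on average), and the 3 genes most and 3 least like Capg. Genes named outside this rule are marked or serve as cell type markers or overlapping neighbours. Tmsb10, whose name stands on several rows, was left out. RefSeq windows (GRCr8) were matched by symbol, and no coordinates are given because the builds differ.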

Additional observations from a re-analysis of the deposited data

How the results depend on the processing

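The log2 fold changes of the 5 tested members moved by less than the spread between replicates in all 70 refits (8 other settings and 6 with a sample left out). Capg lay between 1.95 and 2.02, Gsn between 0.36 and 0.42, Svil between 0.55 and 0.67, Flii between 0.04 and 0.14, and Avil between 0.00 and 0.08. Of the list genes, 36 higher and 13 lower became 0 and 0 when an absolute log2 fold change over 1 was also required, which follows from that added requirement. They were 32 and 16 with library size only, and 33 to 36 and 9 to 13 with a sample left out. Of 350 refits of named list genes, 343 kept their direction and side of the threshold and 7 lost significance, 6 of them for Wasl and 1 for Acta2. Counts of single lists moved by over 1.5 times in 26 of 240 refits, by the added fold-change requirement or in the number of lower cappers, nucleation genes and actins. Same-numbered samples had correlations of deviations of 0.0339, -0.0337 and 0.105 across 10341 genes. Differently numbered samples had -0.121 to 0.0832. With 3 samples per group, these values cannot decide whether the numbers pair the samples. Under the replicate block, 36 list genes were higher and 15 lower, and Capg had a log2 fold change of 1.997. The comparison of member levels per length was not run, because transcript lengths were not used here. Depth limits Vil1, Scin and Avil.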
